A study of Solanum lycopersicum with 12 samples.

Results

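The gene models described here were higher in leaves of heated tomato plants (Solanum lycopersicum) than in control leaves. Their group means were chosen to be close to control when salinity was applied alone or together with heat. These gene models are 100 of the 34075 in the deposited count table. RNA was sequenced from 12 leaf libraries in 4 groups of 3, which the labels give as salinity plus heat (called the combination), heat, salinity and control. The sources used here give no cultivar, plant age, salt concentration, temperature or length of treatment, and do not say how many plants made up 1 library. The labels do not say that replicates came from separate plants, so p-values measure the spread between these libraries, which may be technical.

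Members were selected on their own levels in all 4 groups, so those levels are a description and are not tested as a result. Counts were divided by size factors that correct for library depth, and gene models with a mean normalized count of at least 50 were kept. The difference of a treatment from control was taken on the scale log2(group mean + 10), where 1 means a doubling. A member had to differ from control by less than 0.5 in the combination and by less than 0.5 in salinity, in either direction. Its lowest heat library had to lie above its highest control library, and the 100 with the largest heat difference were taken. Of the 17055 gene models kept, 4549 met the limits in both the combination and salinity, and 1390 of these also had every heat library above every control library.

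In plants, heat disturbs protein folding and membranes and activates heat stress transcription factors, which raise chaperones and other protective proteins. Salinity limits water uptake and loads the leaf with ions, and much of its transcriptional response runs through abscisic acid. Leaf responses to stresses that come together are often not the sum of the responses to each stress alone, which is why such combinations are studied. The files name gene models by Solyc identifiers only. The reference table of tomato genes used here held no identifier of this form, so none of the 100 could be looked up in it. No function is therefore given to any member, and the leaf label was not checked against marker genes. In whole leaves, fewer cells of a type and less RNA per cell cannot be told apart.

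The libraries held between 64418783 and 78005645 counts in the combination, between 72291497 and 78370751 in heat, between 59190063 and 72608877 in salinity and between 56281339 and 72655758 in control. Together the members took 0.0771% ± 0.0249 of the counts of a combination library, 0.260% ± 0.111 in heat, 0.0530% ± 0.0195 in salinity and 0.0572% ± 0.0166 in control (mean ± SD, n = 3 each). The members had a median of 311 normalized counts over the 12 libraries, below the 684 of all 17055 gene models kept, and a range from 59.8 to 11099. Heat libraries differed strongly among themselves in these members, and heat replicate 2 stood highest, so values without it are given where it matters.

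**Figure D1:**
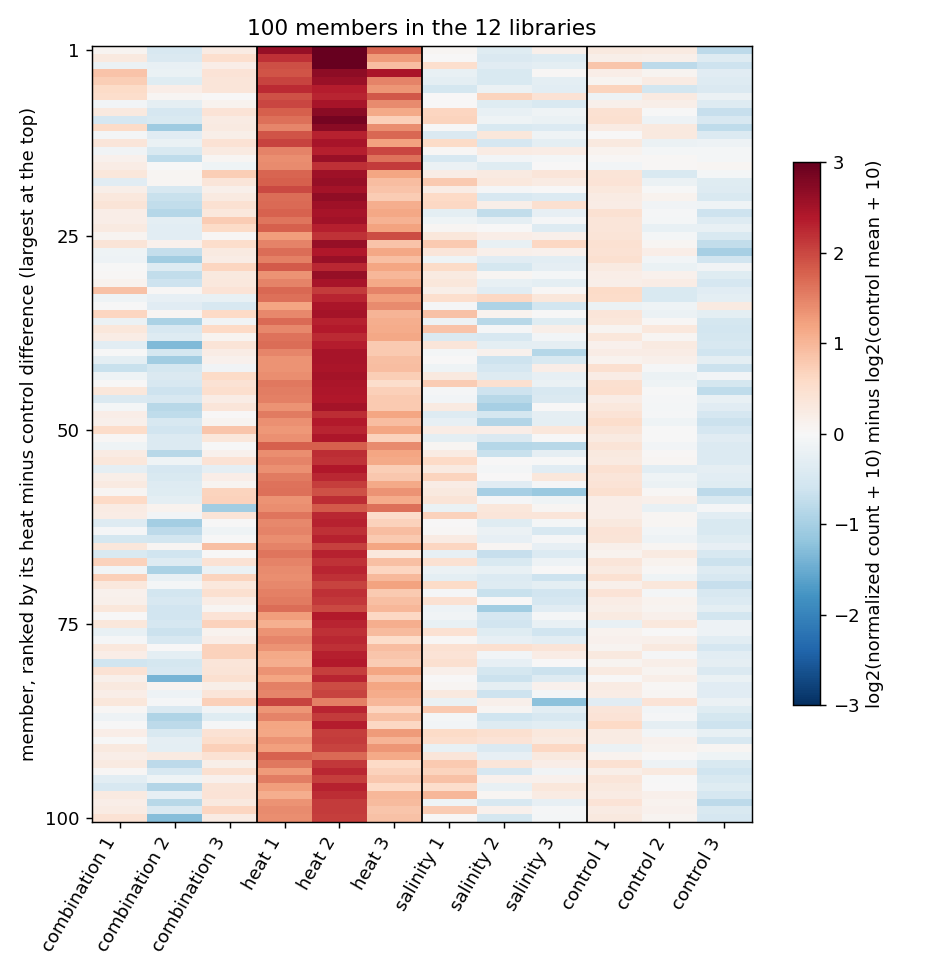
The 100 members (rows, ranked by their heat difference) in the 12 libraries (columns); colour shows log2(normalized count + 10) minus the same of the control mean, red above and blue below. All 3 heat columns are red in every row, heat replicate 2 most deeply, while combination replicate 2 and control replicate 3 are mostly pale blue.

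The largest heat difference was that of Solyc03g115000.3.1. Its normalized counts were 422, 285 and 478 in the combination, 2520.1, 4717 and 1358 in heat, 421, 310.1 and 449.6 in salinity, and 489, 482 and 230.0 in control, in the order of replicates 1, 2 and 3. The combination and salinity libraries lay inside the range of the control libraries, and the lowest heat library was 2.78 times the highest control library. Mean levels were 395 ± 99.1 in the combination, 2865 ± 1706 in heat, 394 ± 73.6 in salinity and 400.4 ± 148 in control (SD, n = 3 each), so heat stood at 7.16 times control and the combination at 0.138 times heat. Without heat replicate 2, heat stood at 4.84 times control.

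Solyc05g005640.4.1 followed, with 77.2, 42.8 and 91.6 normalized counts in the combination, 319, 637 and 164 in heat, 61.7, 43.2 and 44.5 in salinity, and 70.5, 69.5 and 44.7 in control. Its heat mean was 6.07 times the control mean, or 3.93 times without heat replicate 2, and its 3 heat libraries spanned a 3.88-fold range. Solyc02g014190.4.1 was a low member with 31.2, 30.0 and 44.0 in the combination, 169, 461 and 79.4 in heat, 56.8, 27.2 and 28.2 in salinity, and 73.1, 17.1 and 20.4 in control. Here heat replicate 3 was only 1.09 times control replicate 1. The ratio of the heat mean to the control mean was 6.41, against 3.37 without heat replicate 2 and 12.6 without control replicate 1, so both libraries moved it strongly and in opposite directions.

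Solyc01g088250.4.1 had 374, 175 and 272 normalized counts in the combination, 772, 1368 and 1159 in heat, 173, 145 and 207 in salinity, and 234, 217 and 158 in control. Its heat libraries lay closer together, within a 1.77-fold range, and combination replicate 1 was the highest library outside heat. The heat mean of 1099.9 ± 302 was 5.42 times the control mean of 203 ± 39.4 (SD, n = 3 each). The combination mean of 274 ± 99.7 was the farthest above control among these 4 members, by 0.41 on the log2 scale.

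Solyc02g062370.4.1 had 224, 98.5 and 172 normalized counts in the combination, 567, 837 and 382 in heat, 104, 92.7 and 105 in salinity, and 138, 156 and 97.1 in control. Solyc07g018000.3.1 had 98.0, 72.8 and 83.3 in the combination, 331, 363 and 170.0 in heat, 39.9, 54.4 and 47.8 in salinity, and 104, 39.3 and 43.4 in control. In both, the salinity mean lay below the control mean, by 0.34 on the log2 scale, and the combination mean above it, by 0.32 and 0.39. Every salinity and combination library of Solyc07g018000.3.1 lay within the range of its control libraries, which was 39.3 to 104. Its heat mean was 4.62 times the control mean, or 6.97 times without control replicate 1.

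Solyc11g069960.2.1 was among the members with the most even heat libraries. It had 2406, 1729 and 1673 normalized counts in the combination, 6269, 8185 and 6112 in heat, 1675, 2654 and 2253 in salinity, and 1509.5, 2022 and 1468 in control. Its heat libraries agreed within 1.34-fold, the heat mean was 4.11 times the control mean, and the combination mean was 0.282 times the heat mean. Its pattern over the libraries was unlike that of most members, since salinity replicate 2 and control replicate 2 were the highest of their groups.

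The most abundant member in heat was Solyc01g108600.3.1, with 7542, 4282 and 8188 normalized counts in the combination, 21058, 39844 and 13477 in heat, 9647, 5225 and 5573 in salinity, and 8428, 6117 and 3812 in control. Its heat mean was 4.05 times the control mean, or 2.82 times without heat replicate 2. The next was Solyc09g075020.3.1, with 7013, 3716 and 6751 in the combination, 13113, 21948 and 11779 in heat, 5769, 3611 and 3293 in salinity, and 6282, 5462 and 3821 in control. Both showed the order common among members, with heat replicate 2 highest and combination replicate 2 and control replicate 3 lowest. Solyc01g080460.3.1 had 4923, 3251 and 4754 in the combination, 8487, 17591 and 6293 in heat, 5729, 3349 and 3091 in salinity, and 4039, 2763 and 2561 in control, and its combination mean was 0.46 above control on the log2 scale, close to the limit of 0.5. Solyc07g005530.4.1, the fifth of the most abundant after Solyc11g069960.2.1, averaged 1284 ± 411 in the combination, 4631 ± 1695 in heat, 1066 ± 91.8 in salinity and 1401 ± 434 in control (SD, n = 3 each).

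**Figure D2:**
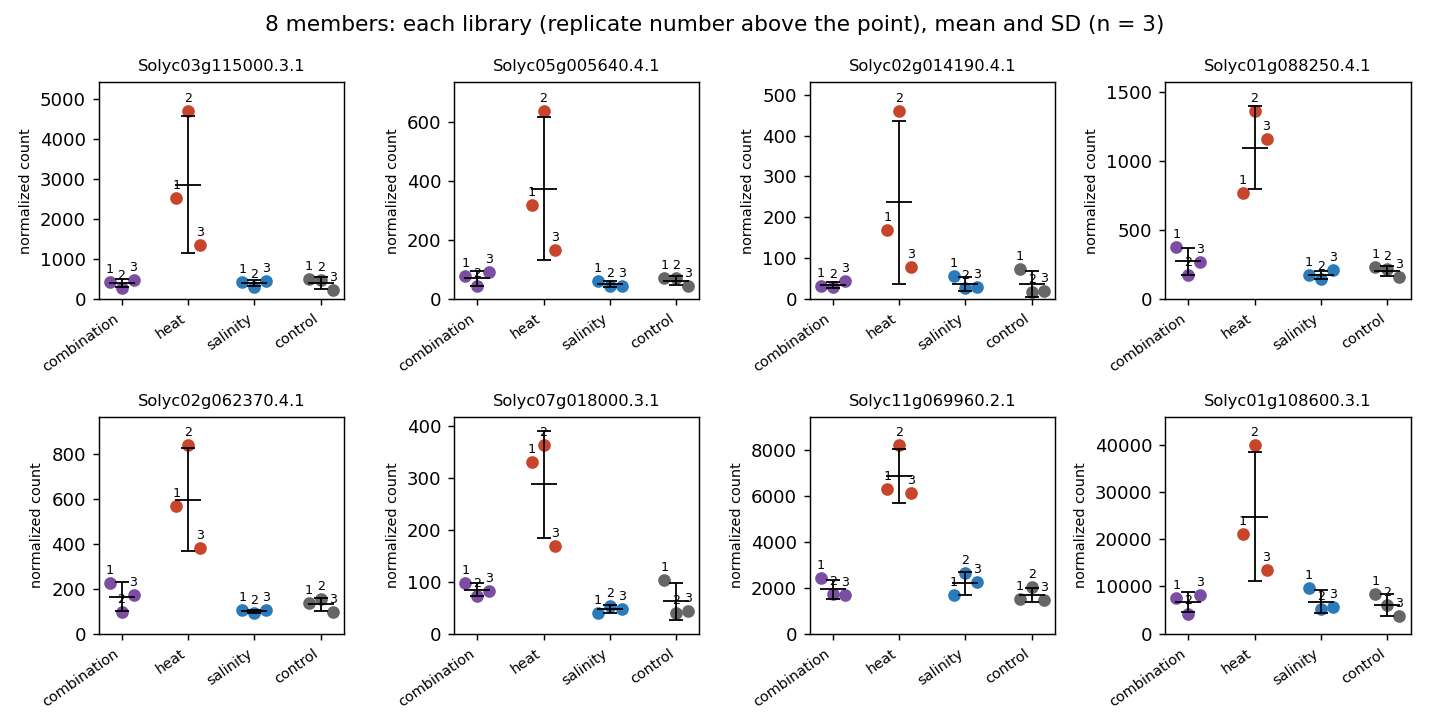
Normalized counts of 8 members in each library (points, with the replicate number above them), with the mean and SD of each group (n = 3); each panel starts at 0 and has its own scale. Heat lies above the other 3 groups in every panel, and the heat libraries are far apart in Solyc03g115000.3.1 (1358 to 4717) and close together in Solyc11g069960.2.1 (6112 to 8185).

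Among the 15 largest heat differences, Solyc02g093100.3.1 averaged 155 ± 20.7 normalized counts in the combination, 698 ± 246 in heat, 136 ± 26.4 in salinity and 164 ± 35.8 in control (SD, n = 3 each). Solyc08g061930.4.1 averaged 918 ± 232 in the combination, 3828 ± 1078 in heat, 1081 ± 89.4 in salinity and 960.4 ± 63.2 in control. Solyc08g075680.4.1 averaged 132 ± 25.6 in the combination, 577 ± 127 in heat, 134 ± 39.9 in salinity and 138 ± 35.7 in control. In these 3 members the combination and salinity means differed from control by at most 0.26 on the log2 scale, while heat was 3.99 to 4.26 times control. The heat libraries of Solyc09g074670.4.1 were far less even, at 249, 587 and 125, against 104, 63.5 and 48.6 in control, and its 4.44-fold ratio of heat to control was 2.59 without heat replicate 2. Solyc11g071620.3.1, Solyc06g007320.3.1 and Solyc04g009130.4.1 completed the 15, with heat means of 4.21, 4.03 and 4.25 times control and combination means of 0.253, 0.292 and 0.212 times heat.

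The ranking left no natural edge. The last members were Solyc09g008040.3.1, Solyc07g006760.4.1 and Solyc01g087490.4.1, each with a heat difference of 1.54. The first gene models outside were Solyc12g017830.3.1, Solyc12g049510.3.1 and Solyc08g067090.4.1, with 1.54, 1.53 and 1.53. Solyc01g087490.4.1 had 835, 1338 and 581 normalized counts in heat and 384, 329.6 and 217 in control, and Solyc12g017830.3.1 had 1054, 2029 and 681 in heat and 540.1, 390.1 and 349 in control. In both, all 3 heat libraries lay above control and replicate 2 was the highest of them.

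Over all members, the heat difference had a median of 1.68 and a range from 1.54 to 2.81, and the ratio of the heat mean to the control mean had a median of 3.37 and a range from 2.94 to 7.16. The combination difference had a median of 0.00 and lay between -0.44 and 0.49, and the salinity difference had a median of -0.03 and lay between -0.47 and 0.49. Over the 17055 gene models kept, the medians were 0.02 for heat, -0.04 for the combination and 0.05 for salinity. The combination mean was 0.138 to 0.441 times the heat mean of the same member, with a median of 0.287. When heat was added to salinity, the members differed little by construction, with a median of 0.06 and a range from -0.69 to 0.88 for the combination minus salinity. The near-control level of the combination changed with the size factors. When libraries were scaled by their total counts, the median heat difference of all gene models moved to 0.41 and that of the combination to 0.28, and 63 of the 100 members kept both limits, with a median combination difference of 0.33.

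The groups were also separate library by library. Every heat library lay above every control library in all 100 members, as the choice required, and this held for 29.8% of all gene models kept. Every combination library lay below every heat library in 100 members, against 30.2% of all. The choice fixed the group means behind this count, though not each library. The highest combination library was 0.615 times the lowest heat library in the median member and 0.934 times at most, in Solyc01g067560.3.1, named after its values were seen. Every heat library lay above every salinity library in 95 members, against 38.9% of all. Every combination library lay above every control library in 1 member and below in 0, against 23.1% and 24.2% of all gene models kept, as the limit on the combination led to.

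In a model fitted to all 20717 gene models that passed the filter on low counts, all 100 members passed, and all 100 were called higher in heat than in control, against 24.6% of all gene models (quasi-likelihood test of edgeR, Benjamini-Hochberg adjusted p under 0.05). The scaling of this model placed the median of all gene models at 0.14 on the log2 scale in this comparison and that of the members at 1.84. In the combination against heat, 100 members were called lower, against 23.4% of all, with a median log2 fold change of -1.86. No member was called in the combination against control, where 32.5% of all gene models were called, or in salinity against control, where 47.4% were. None had an unadjusted p under 0.05 in either of these by edgeR, and the Wald test of DESeq2 called none either. The interaction, which is the combination minus heat minus salinity plus control on the log2 scale, was called negative for 51 members, against 4.21% of all gene models. It had a median of -1.76 and a median SE of 0.52. The choice used every one of these contrasts, so nothing is read from the counts. Without heat replicate 2, 96 members were called higher in heat against control, as were 2905 of all 20717 gene models. In the combination against heat 85 members were then called lower, as were 3169 of all. The interaction count was less steady, and the share over all gene models moved with it. It was 13 (1.84% of all gene models) when libraries were scaled by total counts, 28 (2.77%) with the replicate number as a block and 83 (7.34%) by the Wald test of DESeq2. With 1 library left out it was 20 or 26 without combination replicate 1 or 2, 29 or 17 without heat replicate 1 or 2, 23, 33 or 32 without salinity replicate 1, 2 or 3, and 14 or 19 without control replicate 2 or 3. In these 9 refits the share called negative over all gene models was 1.55% to 3.70%.

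**Figure D3:**
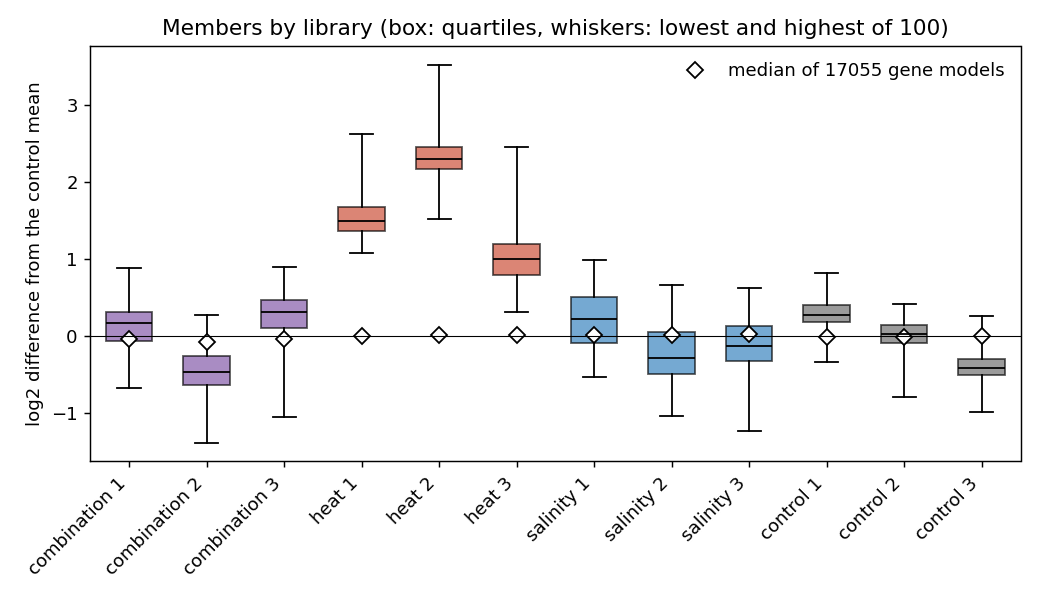
Log2 difference of each member from its control mean, by library; boxes show the quartiles, the line the median, whiskers the lowest and highest of the 100 members, and diamonds the median of all 17055 gene models kept. The members' medians are 1.49, 2.30 and 1.00 in heat replicates 1, 2 and 3, and between -0.46 and 0.31 in every other library, while the diamonds lie within 0.08 of 0.

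Members varied together between replicates of one group, a feature that the choice used only in part. Their median difference from the control mean was 0.17, -0.46 and 0.31 in combination replicates 1, 2 and 3, 1.49, 2.30 and 1.00 in heat, 0.22, -0.28 and -0.13 in salinity, and 0.28, 0.03 and -0.41 in control. Heat replicate 2 was thus the highest and heat replicate 3 the lowest, by a median ratio of 2.45 between them. The median over all gene models kept lay between -0.08 and 0.02 in each library.

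Heat replicate 2 was the highest heat library in 98 members and heat replicate 3 the lowest in 90, against 41.1% and 37.3% of all gene models kept. The choice used the heat libraries, so the heat order is not independent of it, although no condition named a replicate. How far the choice set the heat order was not tested. The order in the other groups was not a condition of the choice, but it was linked to the heat order in all gene models kept. There, the deviation from the group mean in heat replicate 2 had a correlation of 0.469 with that in control replicate 1. Its correlations with control replicate 3, combination replicate 2 and salinity replicate 1 were -0.557, -0.604 and 0.163. How far this link set the shares below was not tested. Combination replicate 2 was the lowest combination library in 90 members, against 41.5% of all. Control replicate 3 was the lowest control library in 85 members, against 37.6% of all, and control replicate 1 the highest in 78, against 33.3%. Salinity replicate 1 was the highest salinity library in 74 members, against 39.4%.

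These orders came together in the same members. Heat replicate 2 was highest while heat replicate 3, control replicate 3 and combination replicate 2 were each lowest in 73 members, against 17.2% of all gene models kept. The next 100 gene models in the ranking, with smaller heat differences, showed the same combination in 78. It was less frequent, at 22.9%, among the 371 gene models raised at least as much by heat whose combination difference was 0.5 or more. No test was made of these shares, since gene models of one library share its RNA and are not replicates.

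Sequencing depth moved with this order in part. In each of the 4 groups, the library with the highest median over the members had the fewest counts. These were combination replicate 3 with 64418783 counts, heat replicate 2 with 72291497, salinity replicate 1 with 59190063 and control replicate 1 with 56281339. In the combination and in heat the members' order was the exact reverse of the order of total counts, but not in salinity or control. Salinity replicate 2, the lowest salinity library in the members, held 67267531 counts, fewer than salinity replicate 3 with 72608877. Control replicate 3, the lowest control in the members, held 62263848 counts, between control replicates 1 and 2. The number of gene models detected was also the lowest of the group in combination replicate 3 (22805), heat replicate 2 (22904) and control replicate 1 (22013), but the highest in salinity replicate 1 (22589). The part of depth in the shared order was not tested.

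**Figure D4:**
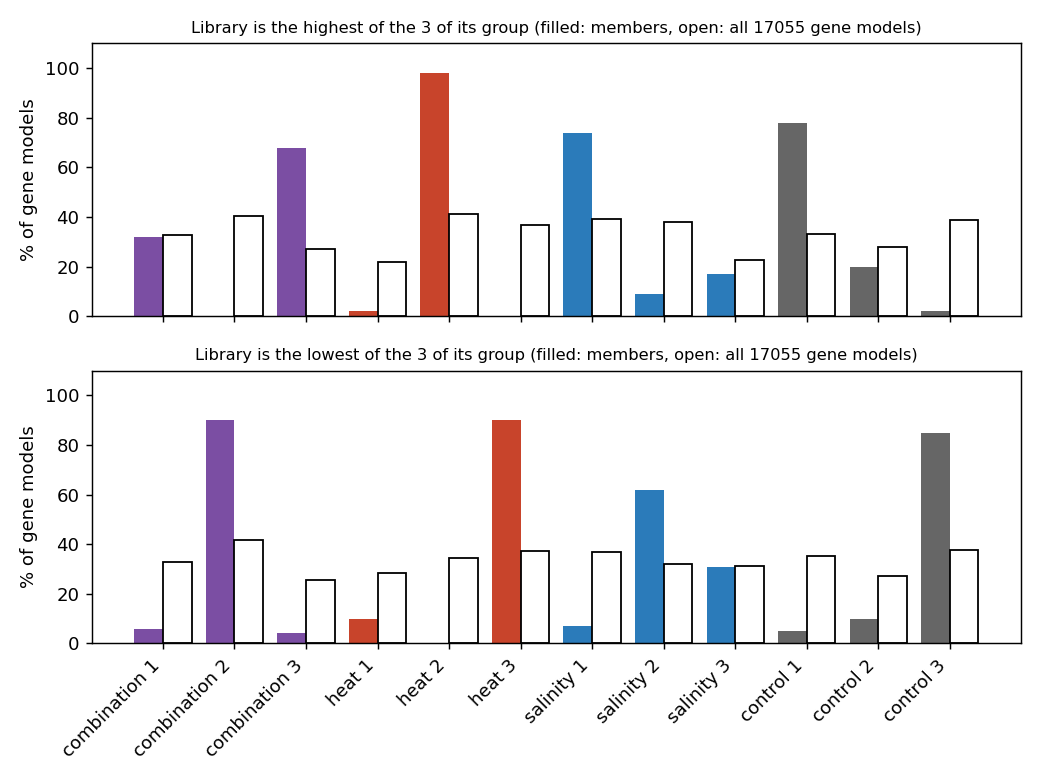
Percent of gene models in which a library is the highest (upper panel) or the lowest (lower panel) of the 3 libraries of its group, for the 100 members (filled bars) and for all 17055 gene models kept (open bars). Heat replicate 2 is highest in 98% of members, and combination replicate 2, heat replicate 3 and control replicate 3 are lowest in 90%, 90% and 85%.

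The spread within heat was correspondingly wide. The highest heat library was at least 2 times the lowest in 81 members, with a median ratio of 2.45 and a range from 1.31 to 5.81. After adding 10 to each count, this ratio had a median of 2.40 in members and 1.30 in all gene models kept. The same ratio within the combination was 1.81 in members and 1.38 in all, within salinity 1.49 and 1.40, and within control 1.67 and 1.33. Without heat replicate 2 the ratio of the heat mean to the control mean moved by over 1.5 times in 21 members, the median heat difference of the same 100 members was 1.26, and 95 of them still differed from control by at least 1. Without control replicate 3 it was 1.52, and without control replicate 1 it was 1.88.

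The limits on the combination and salinity were sensitive to single libraries. With control replicate 1 left out of the means, 75 of the 100 members kept both limits, and with control replicate 3 left out 79 did. Leaving out combination replicate 2 kept 85 members within them and moved the median combination difference to 0.22, and leaving out combination replicate 3 kept 89 and moved it to -0.14. Leaving out salinity replicate 1 kept 84 and moved the median salinity difference to -0.20, and leaving out salinity replicate 2 or 3 kept 90 or 89.

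To see the pattern in libraries that had no part in the choice, the same conditions were applied to 8 libraries, with 1 replicate number left out of every group, and the 100 gene models so chosen were read in the other 4 libraries. With replicate 1, 2 or 3 left out, 64, 57 and 59 of those gene models were also among the 100 members. Each left-out comparison sets 1 library against 1, so there is no replicate error. Counts in the left-out libraries were divided by the size factors of all 12 libraries. With replicate 1 left out, the median heat difference was 1.99 in the 8 libraries and 1.13 in those left out, where all 100 gene models were higher in heat. With replicate 2 left out, it was 1.31 in the 8 libraries and 2.09 in those left out, and 99 gene models were higher in heat. With replicate 3 left out, it was 1.78 and 1.35, and all 100 were higher. Over all gene models kept, between 50.5% and 51.7% were higher in heat in the left-out libraries, and the medians lay between 0.01 and 0.04. The higher level in heat was therefore also seen in libraries that did not choose the gene models, at a size that changed with the library.

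The near-control level in the combination was less steady in the left-out libraries. The median combination difference was -0.25 with replicate 1 left out, -0.56 with replicate 2 and 0.82 with replicate 3, against 0.10, 0.23 and -0.12 in the 8 libraries that made the choice. The gene models chosen without replicate 3 thus stood well above control in combination replicate 3. The salinity difference was -0.18, -0.46 and 0.34 in the 3 left-out sets. The combination minus heat was -1.40, -2.67 and -0.50 in the 3 left-out sets, and 100, 98 and 87 of the 100 gene models were lower in the combination than in heat, against 48.9%, 48.3% and 48.6% of all kept. Both limits were met by 44, 25 and 10 of the 100, against 21.0%, 20.4% and 30.8% of all. The gene models kept as a whole were not chosen for heat, so they are no matched baseline for the combination minus heat. Over group means, that difference had a median of -0.35 in the 371 gene models given above, whose combination difference was 0.5 or more. The left-out sets were formed by replicate number, which the labels do not give as a pairing. With replicate 2 left out, heat replicate 2, the highest heat library over the members, met combination replicate 2, the lowest. With replicate 3 left out, heat replicate 3, the lowest heat library, met combination replicate 3, the highest. The combination was lower than heat in the median of every left-out set, at sizes that differed with the libraries compared. The median combination difference lay within 0.5 of control only with replicate 1 left out. With replicate 3 left out, the share that met both limits was below that of all gene models kept.

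**Figure D5:**
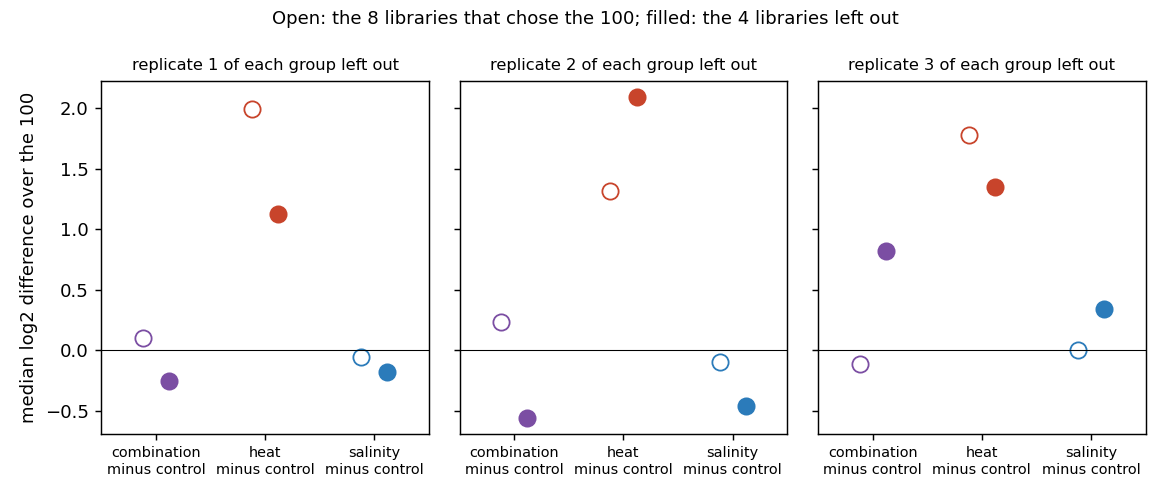
Median log2 difference from control over the 100 gene models chosen from 8 libraries (open points) and read in the 4 libraries left out (filled points), for the combination, heat and salinity, with replicate 1, 2 or 3 of each group left out. The heat median is at least 1.13 above control in every left-out set, while the combination median ranges from -0.56 to 0.82.

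A minority departed from the common heat order, and the members in this paragraph were singled out after their values were seen. In 10 members the lowest heat library was replicate 1, and in 2 members replicate 1 was the highest. Solyc07g055930.3.1, one of those 2, had 239.8, 255 and 284 normalized counts in the combination, 741, 704 and 469 in heat, 272, 176 and 261 in salinity, and 224, 212 and 192 in control. Its combination and control libraries differed little among themselves, unlike those of most members. Solyc01g081440.3.1 had 1431, 1285 and 571 in the combination, 3158, 4313 and 3753 in heat, 1041, 1509 and 1242 in salinity, and 1383, 1031 and 1176 in control. In the combination its lowest library was replicate 3, which was the lowest in only 4 members. Solyc03g111800.2.1 had the common heat order but the narrowest heat range, 1.31-fold, with 875, 877 and 669.5 in heat against 325, 231 and 183 in control. The members given so far in this paragraph show the higher heat level without 1 heat library far above the others. This did not hold for all members with an uncommon heat order. Solyc05g009310.3.1, with replicate 1 lowest, had 495, 1199 and 578 in heat.

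At the other end, the heat and control libraries almost met in 4 members, also singled out after their values were seen, Solyc01g095900.4.1, Solyc11g071250.3.1, Solyc01g067560.3.1 and Solyc02g014190.4.1, whose lowest heat library was 1.02 to 1.09 times the highest control library. Solyc01g095900.4.1 had 1509, 884 and 1496 normalized counts in the combination, 3467, 7854 and 2378 in heat, 1449.8, 1173 and 1226 in salinity, and 2326, 1269 and 998 in control. Heat replicate 3 and control replicate 1 were therefore nearly equal in this member, whose 2.98-fold ratio of heat to control was 1.91 without heat replicate 2. In the median member, the lowest heat library was 1.65 times the highest control library.

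The chromosome that a Solyc identifier carries spread the members over the 12 chromosomes, from 2 on chromosome 10 to 21 on chromosome 1. Chromosome 1 held 21% of the members and 12.7% of all gene models kept, chromosome 2 held 15% and 10.4%, and chromosome 10 held 2% and 6.71%. No members were next to each other in the order of identifiers among the gene models kept, and 10 pairs lay within 10 steps. The closest pair, found after the positions were seen, was Solyc01g088170.4.1 and Solyc01g088250.4.1, 2 steps apart, with heat differences of 1.81 and 2.38. The 199 gene models directly beside a member had a median heat difference of 0.09, against 0.02 for all kept, and 32.2% of them had every heat library above every control library, against 29.8% of all.

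Members were one of several kinds of gene models raised by heat to this extent. In all, 625 gene models had every heat library above every control library and a heat difference at least that of the last member. The combination difference was 0.5 or more in 371 of these (59.4%), within 0.5 of control in 201 (32.2%) and lower than control by 0.5 or more in 53 (8.48%). The salinity difference was within 0.5 in 243 of them (38.9%), and the 100 members are those within the limits on both. The opposite pattern, with heat below control in every library by as much and both other differences within 0.5, was found in 27 gene models. Among the 371, the combination difference had a median of 1.76 and the heat difference a median of 2.03. Their median control level was 76.4 normalized counts, against 197 in the members. The filter took the mean over all 12 libraries, so gene models high in heat and the combination could pass it with few control counts. The lowest control mean was 0 among the 371 and 36.9 among the members. The gap in control level was thus partly set by the choice, and nothing is read from it.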

How the data were processed

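The authors deposited whole-number counts per gene model, with 1 column for each of the 12 libraries and no normalization. Per the submitters' processing notes, Trimmomatic 0.33 and Bowtie2 2.3.4 were used, with no role or order given. Per the labels' protocols, messenger RNA was enriched on beads and read in pairs. The counting program, strandedness and treatment of reads shared by similar or overlapping gene models are not given in the sources used here, so counts of such gene models are uncertain.

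Size factors were medians of ratios over the 19662 gene models with a count in every library. The members, gene lists and naming rule were chosen with earlier results of these data known. Named were the 15 members with the largest heat difference, the 5 most abundant in heat, and 3 members and 3 non-members at the edge. Members named beyond this rule, such as those at the extremes of a range or in the closest pair, were picked after their values were seen. Planned lists by product name and promoter motifs could not be made, since no identifier matched the reference table.

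Tests ran over the whole table in R 4.3.3 with edgeR 4.0.16, using filterByExpr, TMM scaling and 1 quasi-likelihood model of 4 groups, with Benjamini-Hochberg adjustment over 20717 gene models and a threshold of 0.05. DESeq2 1.42.0, other scalings, filters, a replicate block and leaving out each library were alternatives. The model was tested on simulated data: with 200 gene models changed in heat, 80.2% of log2 changes of 2 and 33.0% of log2 changes of 1 were called in heat against control. For the interaction these shares were 53.8% and 2.13%. The simulated data held no other group differences, whereas 24.6% of the real gene models were called higher in heat against control. The adjusted p depends on how many gene models change, so these shares do not give the sensitivity of the tests on the real data. No libraries of a group were duplicates, as their counts differed with a chi-square of at least 50.4 per degree of freedom. The smallest two-sided p that an exact permutation test of 3 libraries against 3 allows is 0.1, so none was made.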

Additional observations from a re-analysis of the deposited data

Results flagged for a closer look

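For 51 of the 100 members the effect of heat differed between plants without and with salinity by the interaction test of edgeR, with an adjusted p under 0.05 over all 20717 gene models, of which 4.21% were called in the same direction. All 51 interactions were negative, which means that the log2 change with heat was lower with salinity than without it. That change need not be a rise. Over the 100 members, the combination minus salinity had a median of 0.06 and a range from -0.69 to 0.88. The members were chosen for this contrast, so the count is a description, and nothing is read from it. It was 13 (1.84% of all gene models) with total counts, 28 (2.77%) with the replicate block and 83 (7.34%) by the Wald test of DESeq2. With 1 library left out it was 14 (1.55%) to 76 (4.85%).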

How the results depend on the processing

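All members were called in heat against control and at least 99 in the combination against heat under each alternative that kept all libraries. Over all gene models tested, 4232 to 7005 were then called higher in heat and 3735 to 4916 lower in the combination. With 1 library left out, the member counts ranged from 96 to 100 and from 85 to 100, both lowest without heat replicate 2. In that refit 2905 and 3169 of all 20717 gene models were called in the same directions. Members called in the combination against control numbered 0 to 1 and in salinity against control 0 to 2 with 1 library left out, and 0 otherwise. In the main fit 32.5% and 47.4% of all gene models were called in these. The interaction count of 51 (4.21% of all gene models) was 13 (1.84%) with total counts alone, 28 (2.77%) with the replicate block and 83 (7.34%) with the Wald test of DESeq2. With 1 library left out it was 14 (1.55%) to 76 (4.85%), lowest without control replicate 2 and highest without heat replicate 3. It was under 34, a move of over 1.5 times, in 9 of the 12 refits, those without control replicate 2 or 3, any salinity library, combination replicate 1 or 2, or heat replicate 1 or 2. The causes were not tested. The labels do not say whether replicate numbers pair libraries of different groups. Same-numbered libraries of different groups had correlations of their deviations from the group means between -0.604 and 0.478 over 18 pairs, with a mean of -0.0197. Differently numbered libraries had correlations between -0.557 and 0.591 over 36 pairs, with a mean of 0.00878. Such values cannot show whether libraries were handled together, which was not tested.

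Membership depended more on the settings. Of the 100 gene models chosen, 63 were shared with the members under total counts, 50 with limits of 0.3 and 36 with limits of 1, where fewer or more gene models qualify by construction, and 68 to 99 under the other alternatives. With 1 library left out, 59 to 91 were shared, lowest without control replicate 1. The median heat difference of the gene models chosen was 1.30 to 1.96 with 1 library left out, lowest without heat replicate 2, and 1.54 to 1.99 otherwise. Low counts limit single values: 3 members had a library under 20 normalized counts, the lowest being 8.57. Left-out libraries differ by single values with no error.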
